A study of Mus musculus with 12 samples.

Results

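The 29 genes described here encode proteins that make cholesterol, hand it on inside the cell, limit its uptake, or tell the cell how much of it is present. They were chosen by symbol from a list of cholesterol synthesis, uptake and SREBP2 control genes, and each of the 29 had a row among the 15838 genes of the deposited tables. Not every enzyme of the pathway is on the list. The RNA sequenced was that of corneal endothelial cells (CEC), the pump layer on the inner face of the cornea, dissected with Descemet membrane, the basement membrane they sit on. Mice were C57BL/6 at 10 weeks of age, in 4 groups of 3 libraries each, Slc4a11-/- males, Slc4a11-/- females, Slc4a11+/+ males and Slc4a11+/+ females, 12 libraries in all. Slc4a11-/- (KO) mice carried a targeted deletion of exons of Slc4a11, a membrane transporter of the corneal endothelium, in the whole animal and not in this layer alone, and Slc4a11+/+ (WT) mice were littermates from heterozygous parents. The sample records describe the membranes as pooled, whereas the methods of the study describe both membranes of a mouse processed as a pair, so the number of mice behind a library is not settled here.

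The value given for each gene is the authors' mean expression, in log2 CPM (read counts scaled to a fixed library total), over KO and WT libraries of both sexes. It is 1 number a gene, with no spread between libraries, and therefore differences between genes are described without a test and no effect of genotype or sex is given. The authors' own fold changes and p-values for genotype, sex and their interaction were not used. The number of reads in each library was not analysed here. A CPM printed beside a log2 mean is that mean taken off the log scale. A long gene collects more reads than a short gene of equal abundance, so folds between genes were taken only per length, in the main as log2 CPM per kb of exonic sequence, the union of all annotated exons of the gene in GENCODE M21 (GRCm38, the build of the deposited tables).

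Cholesterol is built from acetyl-CoA in the endoplasmic reticulum and cytosol by a long chain of enzymes, by way of mevalonate, farnesyl diphosphate, squalene and lanosterol. Its synthesis is governed by SREBP2, a transcription factor made as a membrane protein. SCAP escorts SREBP2 to the Golgi when sterol is scarce, where a pair of proteases release its active part, and the INSIG proteins hold SCAP back in the endoplasmic reticulum when sterol is plentiful. The liver X receptors (LXR) respond to an excess of sterol instead, and turn on genes that export cholesterol or remove lipoprotein receptors.

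SREBP2 binds sterol regulatory elements close to the start of its target genes, usually beside binding letters for the factors NF-Y and Sp1, and the promoter sequences of the 29 genes are therefore shown before their levels. RefSeq promoter windows on GRCm38.p6, each from 250 bases before an annotated start to 50 bases after it, were matched by symbol for 25 of the 29 genes, and Fdft1, Fdps, Sqle and Stard4 were not matched. Letters were searched on both strands, TCACNCCAC as the sterol regulatory element, CCAAT as the CCAAT box bound by NF-Y and GGGCGG as the GC box bound by Sp1. The long sterol element was found in 1 of the 25 genes, Hmgcs1, and in 1.44% of all 27025 genes of the promoter table. Only exact matches to these letters were counted. A gene without a match may therefore still hold a sterol element with other letters or outside its window. Positions below are those of the leftmost base of the match, counted from the start, with negative numbers before it. The Hmgcs1 element lay at -137, at chr13:119690203-119690232 on the plus strand, upstream of the gene as GENCODE draws it, and is shown with the match in capitals.
Hmgcs1 sterol element: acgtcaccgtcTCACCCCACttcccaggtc

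The shorter letters CACNCCAC, which lie inside the longer element, were present in 3 of the 25 genes (12%), against 7.12% of all genes. Besides Hmgcs1 these were Acat2, which had 2 matches, and Insig1. Those nearest the start are shown because both genes sit at points where the pathway is controlled or begins, and both were read on the strand opposite to the gene. The Acat2 match at -53 was at chr17:12960760-12960789 on the minus strand, upstream of the gene, and the Insig1 match at -9 was at chr5:28071392-28071421 on the plus strand, within an exon of the GENCODE gene.
Acat2 shorter element: cgtgaggaggcGTGGCGTGgaggccatagc
Insig1 shorter element: cgtgtagtgtcGTGGCGTGtaccttccatg

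With the GC box next at 14 of 16 (87.5%), the CCAAT box was the commonest of the searched letters in the synthesis enzymes. It was present in 15 of the 16 enzymes with a window (93.8%), all except Acat2, in 4 of the 9 control and transport genes (44.4%), and in 41.1% of all genes in the promoter table. Among protein-coding genes with a mean level in these libraries the share was 42.6%. Of the neighbouring lists described below, fatty acid synthesis had the box in 10 of 13 genes (76.9%). Cholesterol efflux, esterification and transport had it in 10 of 12 (83.3%). The box was less common in other uses of farnesyl diphosphate (5 of 11), degradation and partners (4 of 9) and oxysterol synthesis (2 of 5). A high share was therefore not particular to the synthesis enzymes. Among the 25 genes, 19 had the CCAAT box, with 43 matches. Of these matches 24, in 16 genes, lay within 100 bases before the start. Mvk had 5 matches and Hmgcs1 and Nsdhl had 4 each. The match nearest to the start, upstream of it, is shown for 8 enzymes from the beginning, middle and end of the pathway, with CCAAT or its reverse complement ATTGG in capitals. All are written along the strand of the gene.
Hmgcs1 CCAAT box: gtccccgcctctcATTGGctgaaagcggat
Mvk CCAAT box: ctccagctctctgATTGGcctcaggaagac
Mvd CCAAT box: cccggccagcgggCCAATcatatggcagcg
Idi1 CCAAT box: ggtccaaggtgccATTGGctggcgaccgac
Lss CCAAT box: tggtgatgctctgATTGGccgagctcgcat
Cyp51 CCAAT box: ccgctgtccgccaCCAATctggtcctgaga
Msmo1 CCAAT box: ggagtggggcggaCCAATtacgacaggcga
Tm7sf2 CCAAT box: cctcccagcgctgATTGGctactgtgctgg

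These stretches of 30 bases lay at chr13:119690293-119690322 (plus strand) for Hmgcs1, chr5:114444242-114444271 (plus) for Mvk, chr8:122443433-122443462 (minus) for Mvd and chr13:8885579-8885608 (plus) for Idi1. Those of the later enzymes lay at chr10:76531530-76531559 (plus) for Lss, chr5:4104710-4104739 (minus) for Cyp51, chr8:64733617-64733646 (minus) for Msmo1 and chr19:6067881-6067910 (minus) for Tm7sf2. By the GENCODE gene models the stretches of Idi1, Cyp51, Msmo1 and Tm7sf2 were exonic, because GENCODE lets these genes begin further upstream than RefSeq does. The stretch of Mvk had 3 exonic bases, and those of Hmgcs1, Mvd and Lss were upstream of the gene.

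The GC box was present in 20 of the 25 genes (80%), in 38.2% of all genes of the promoter table and in 68.5% of protein-coding genes with a mean level. The share among the 25 genes therefore stood much closer to that of other expressed genes than to that of all genes. By group, it was 14 of 16 enzymes (87.5%) and 6 of 9 control and transport genes (66.7%). Both boxes occurred in a single window in 13 of 16 enzymes (81.2%), in 3 of 9 control and transport genes (33.3%) and in 26.6% of protein-coding genes with a mean level. Mbtps1, which had the highest level of the 29 genes, had neither the sterol element nor a CCAAT box in its window, and its only match was a GC box at -149, at chr8:119558893-119558922 on the minus strand, upstream of the gene.
Mbtps1 GC box: tcgccctcggctCCGCCCcttcccgacccc

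Mbtps2, Nr1h2 and Nr1h3 held none of the letters searched. Such matches describe the sequence, and no binding was measured.

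**Figure D1:**
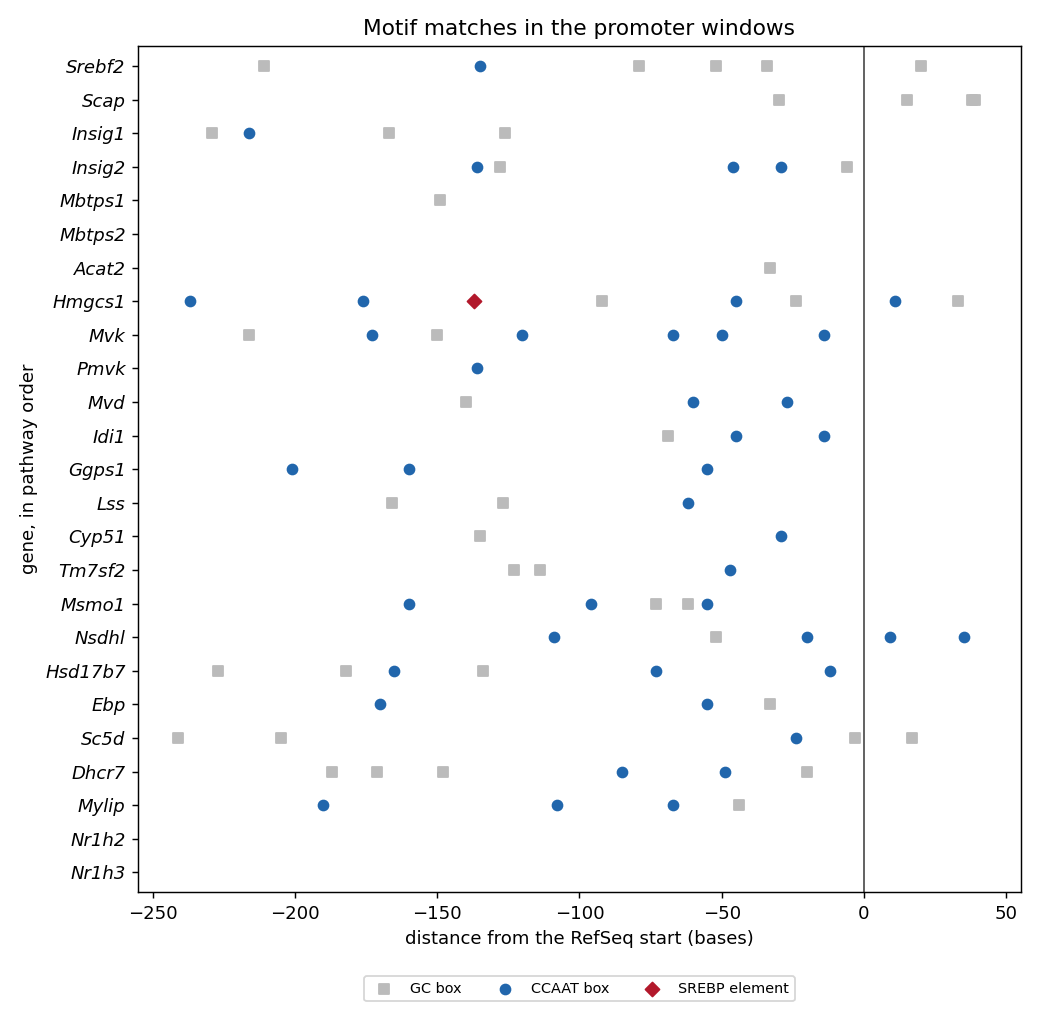
Matches to the sterol element (red diamond), the CCAAT box (blue circles) and the GC box (grey squares) in the promoter windows of the 25 genes, in pathway order, with the distance of the leftmost base of each match from the RefSeq start in bases. Matches are placed relative to the start of their own window where a gene has several starts. CCAAT boxes stand in the rows of 15 of 16 enzymes, with 24 of the 43 matches within 100 bases before the start, and the single sterol element is in the row of Hmgcs1.

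Genes of control and transport had a higher median RNA level per kb than the genes of the synthesis enzymes. The 10 genes of control and transport had a median of 3.09 log2 CPM per kb, and 8 of them lay above the median of all genes with a length, which was 1.79 log2 CPM per kb over 15824 genes. The 19 enzymes had a median of 1.18 log2 CPM per kb, and 9 of them lay above that median. The order of the steps was the SREBP2 machinery at 3.09, sterol transfer and LXR at 2.71, squalene to lanosterol at 2.24, acetoacetyl-CoA to farnesyl diphosphate at 1.57 and lanosterol to cholesterol at 1.15 log2 CPM per kb. With coding length the order changed, to 4.86, 3.81, 3.996, 2.45 and 3.30 log2 CPM per kb in the same sequence of steps, with the SREBP2 machinery still highest. Within each step the genes spanned from 4.90-fold to 54.9-fold, so that the ranges of all steps overlapped. In whole tissue, fewer cells of a type and less RNA per cell cannot be told apart in such levels.

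**Figure D2:**
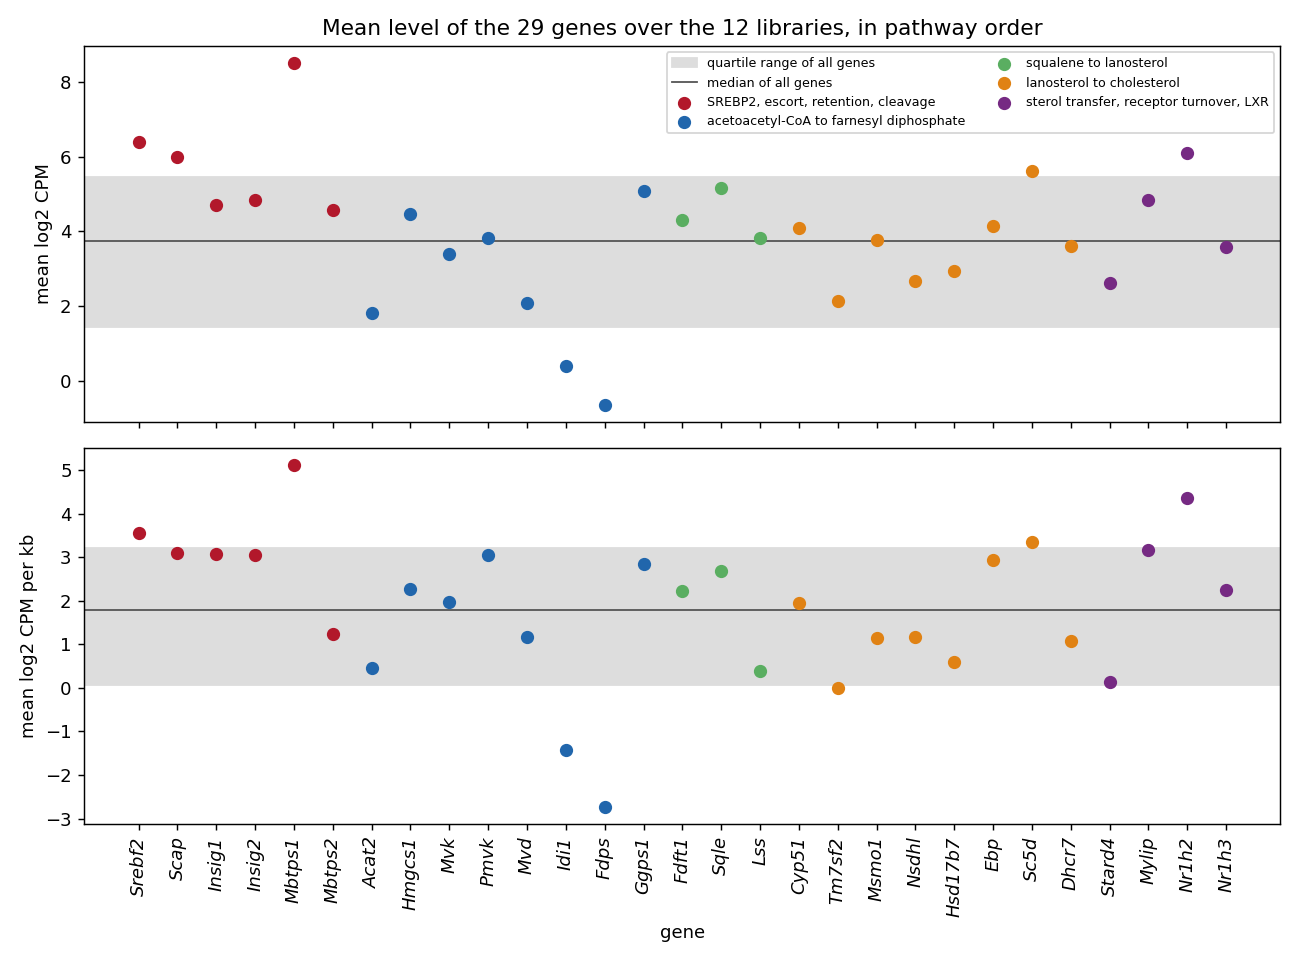
Mean level of the 29 genes over the 12 libraries, as log2 CPM (top) and as log2 CPM per kb of exonic sequence (bottom), with genes in pathway order and coloured by step. The line is the median of all genes and the grey band runs from their lower to their upper quartile, from 1.45 to 5.45 log2 CPM and from 0.08 to 3.21 log2 CPM per kb. Mbtps1 stands at the top and Idi1 and Fdps stand below the band on both scales.

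On the scale of a whole gene, 18 of the 29 genes lay above the median of all 15838 genes, which was 3.76 log2 CPM, and per kb the number was 17. Compared with the 12991 protein-coding genes alone, whose median was 4.36 log2 CPM, 12 of the 29 lay above. The mean reached 1 CPM in 28 of the 29 genes, with Fdps the exception, and 10 CPM in 21 of them. Of all genes, 14407 reached 1 CPM and 8801 reached 10 CPM.

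All 6 genes of the SREBP2 machinery lay above the median of all genes on the log2 CPM scale. Srebf2, which encodes SREBP2 itself, had a mean of 6.41 log2 CPM (85.1 CPM) and ranked above 87.0% of genes. Scap, its sterol-sensing escort, had 6.004 log2 CPM (64.2 CPM). Per kb, Srebf2 stood at 3.57 and Scap at 3.11 log2 CPM per kb. The transcription factor was thus 1.37-fold above its escort per kb of exons.

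The INSIG pair, which retain SCAP in the endoplasmic reticulum, had almost equal mean levels over the 12 libraries. Such means need not be equal within a group of 1 genotype and sex. Insig1, itself a classical target of SREBP2, had 4.70 log2 CPM (26.0 CPM), and Insig2, which is regulated apart from SREBP2 in other tissues, had 4.86 log2 CPM (28.96 CPM). Per kb of exonic sequence they stood at 3.07 and 3.06 log2 CPM per kb, a difference of 0.0094, and Scap stood within 0.05 of both. With coding length in place of all exons the difference, Insig1 minus Insig2, was -0.36 on the log2 scale, so no order between them is given. With coding length, Scap minus Insig1 was -0.995 and Scap minus Insig2 was -1.36. With the longest transcript these differences were 0.66 and 0.50, so the closeness of Scap to the pair holds only with exons.

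Mbtps1, the protease that makes the initial cut in SREBP2 and that also cuts the stress sensor ATF6 and other Golgi proteins, had the highest level of the 29 genes. Its mean was 8.52 log2 CPM (367 CPM), above 98.1% of all genes, and 5.12 log2 CPM per kb. The gene lies on the minus strand at chr8:119508156-119558735. Mbtps2, the protease that makes the following cut within the membrane, had 4.57 log2 CPM (23.8 CPM) and 1.24 log2 CPM per kb, the only gene of the machinery below the median of all genes per kb of exons. With the longest transcript or the coding sequence as length it lay above that median. Mbtps1 was thus 14.8-fold above Mbtps2 per kb, and 7.55-fold above it per kb of coding sequence. Of the exonic sequence of Mbtps2, 28.4% is shared on the same strand with Yy2, a gene lying within it, and this sequence counts in the exonic but not in the coding length of Mbtps2.

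The enzymes that take acetoacetyl-CoA to isopentenyl, farnesyl and geranylgeranyl diphosphate had the widest range of any step, 54.9-fold per kb of exons. That width rests on the low levels of Idi1 and Fdps, which are uncertain, as described below. Without them the step ran from Acat2 at 0.47 to Pmvk at 3.05 log2 CPM per kb. Per kb of exons this was a narrower range than that of the SREBP2 machinery, from 1.24 to 5.12. Per kb of coding sequence it was the wider of the pair. It ran from Acat2 at 1.56 to Ggps1 at 5.24, against Mbtps2 at 3.95 to Mbtps1 at 6.86. Acat2, the cytosolic thiolase that opens the pathway, had 1.82 log2 CPM (3.52 CPM) and 0.47 log2 CPM per kb. Hmgcs1, the cytosolic HMG-CoA synthase and the gene with the sterol element, had 4.46 log2 CPM (22.1 CPM) and 2.26 log2 CPM per kb, 3.47-fold above Acat2 per kb. The enzymes that follow did not fall in order along the pathway. The mevalonate kinase Mvk had 3.39 log2 CPM (10.45 CPM) and 1.97 log2 CPM per kb. The phosphomevalonate kinase Pmvk, with 3.83 log2 CPM (14.2 CPM), was the highest of the step per kb of exons at 3.05, whereas per kb of coding sequence Ggps1 was, at 5.24 against 4.63. The decarboxylase Mvd had 2.07 log2 CPM (4.21 CPM) and 1.18 log2 CPM per kb.

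Idi1 and Fdps had the lowest levels of the 29 genes on each scale used. Idi1, which isomerises isopentenyl diphosphate, had 0.38 log2 CPM (1.30 CPM), above 13.7% of all genes. Fdps, the farnesyl diphosphate synthase at which synthesis of sterols and of other isoprenoids part, had -0.65 log2 CPM (0.637 CPM), above 2.03% of all genes. Ggps1, which lengthens farnesyl to geranylgeranyl diphosphate on the branch towards protein prenylation, had 5.09 log2 CPM (34.1 CPM) and stood 47.8-fold above Fdps per kb. On the sterol branch, Sqle, the squalene epoxidase, stood 42.5-fold above Fdps per kb.

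Fdps and Idi1 share sequence with other genes. Every stretch of 50 bases, the read length, was taken from the annotated transcripts of each of the 29 genes and looked for on both strands in the transcripts of all other genes. For the main coding transcript of Fdps 86.4% of the stretches occurred elsewhere. In all, 77.3% of the stretches were in Gm43738, a protein-coding gene model on the same strand that overlaps 1124 exonic bases of Fdps, and 40.1% were in the processed pseudogene Gm3571. For Idi1 the share was 30.5%, and 21.3% of its stretches were in the pseudogene Gm13502. A read that fits several genes can be dropped or split by an aligner and counter, and how the authors counted such reads is not given in the sources used here, so the levels of Fdps and Idi1 are uncertain. The part of shared sequence in these low values was not tested.

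**Figure D3:**
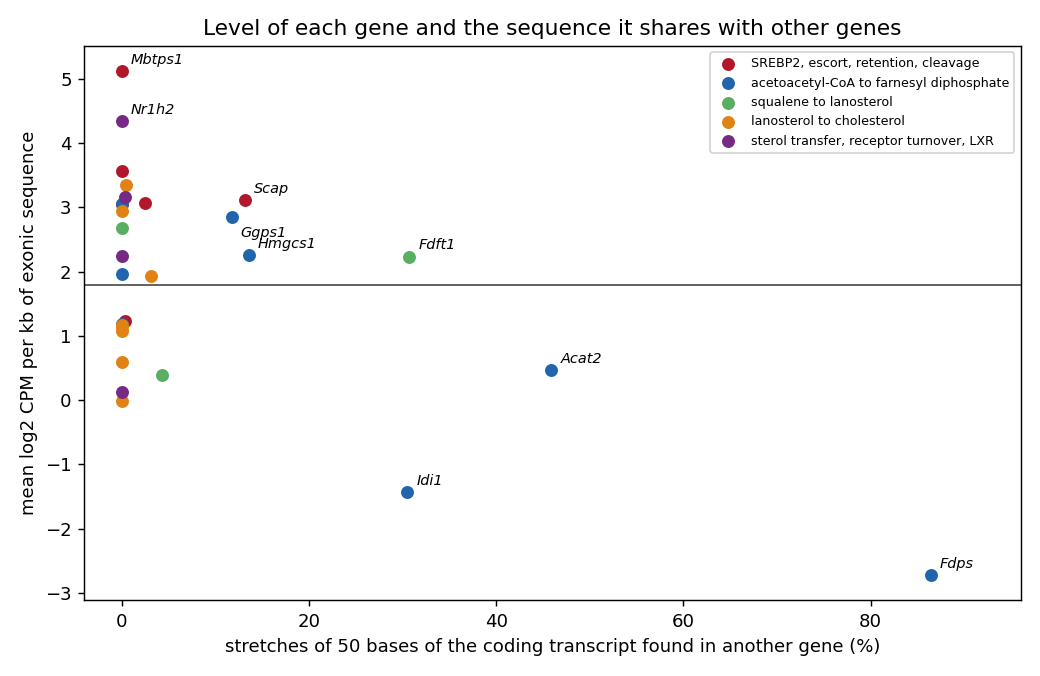
Level of each of the 29 genes, in mean log2 CPM per kb of exonic sequence, against the percentage of 50-base stretches of its coding transcript that also occur in another gene, coloured by step. The horizontal line is the median of all genes. Fdps, with 86.4% shared, and Idi1, with 30.5%, have the lowest levels. Acat2, with 45.9%, lies below the median, and Fdft1, with 30.7%, lies above it. Tm7sf2, with a low level, shares 0.0% of its coding transcript and 9.87% over all its transcripts. The part of shared sequence in these levels was not tested.

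Of the other genes, Acat2 shared 45.9% of its coding transcript with the neighbouring paralog Acat3, for which no row was matched. Of its stretches, 13.2% also occurred in Tcp1, which had 7.21 log2 CPM. The level of Acat2, and differences between Acat2 and other genes, are therefore uncertain as well. Fdft1 shared 30.7%, with 19.9% of its stretches in Ctsb on the opposite strand and 10.85% in the pseudogene Gm6781. Ctsb, the lysosomal protease cathepsin B, had 8.52 log2 CPM. Hmgcs1 shared 13.6%, Scap 13.1% and Ggps1 11.7%. A stranded kit was used, but whether strand was used in counting is not given in the sources used here, so reads of Fdft1 and Ctsb at their overlap may not be separated. In 9 of the 29 genes, Insig2, Pmvk, Mvd, Nsdhl, Hsd17b7, Ebp, Stard4, Nr1h2 and Nr1h3, no stretch occurred elsewhere.

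Of the squalene enzymes, Fdft1 and Sqle lay above the median of all genes per kb and Lss lay below it. Fdft1, squalene synthase and the point of commitment to sterols, had 4.32 log2 CPM (19.9 CPM) and 2.24 log2 CPM per kb. Sqle, the oxygen-dependent squalene epoxidase and a rate-limiting enzyme of the pathway, had 5.16 log2 CPM (35.7 CPM) and 2.69 log2 CPM per kb, the highest of the step and 1.37-fold above Fdft1 per kb. Lss, which folds squalene epoxide into lanosterol, had 3.82 log2 CPM (14.2 CPM) and only 0.39 log2 CPM per kb over the 10787 bases of its exons. Sqle was 4.90-fold above Lss per kb of exons and 3.23-fold above it per kb of coding sequence.

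From lanosterol to cholesterol, 3 of 8 enzymes lay above the median per kb of exons. Sc5d, the desaturase that makes the double bond of the sterol ring, had 5.63 log2 CPM (49.6 CPM) and 3.35 log2 CPM per kb, the highest of the 19 enzymes per kb of exons or of coding sequence, while Pmvk stood above it per kb of the longest transcript, at 3.58 against 3.37. Ebp, the sterol isomerase, followed with 4.15 log2 CPM (17.7 CPM) and 2.94 log2 CPM per kb. Cyp51, the cytochrome P450 that demethylates lanosterol, had 4.08 log2 CPM (16.9 CPM) and 1.94 log2 CPM per kb. With other lengths Cyp51 lay below the median of all genes. It stood at 2.11 against 2.2 with the longest transcript and at 3.49 against 3.87 with coding length.

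The other enzymes of this step were lower per kb of exons. Per kb of coding sequence Msmo1 stood above Cyp51, at 3.95 against 3.49, and above the median of all genes, 3.87. Per kb of the longest transcript Msmo1 (2.19) and Dhcr7 (2.12) stood slightly above Cyp51 (2.11). The enzymes that remove the remaining methyl groups, Msmo1, Nsdhl and Hsd17b7, had 3.76 log2 CPM (13.5 CPM), 2.68 log2 CPM (6.41 CPM) and 2.94 log2 CPM (7.69 CPM), and stood at 1.14, 1.17 and 0.59 log2 CPM per kb. Dhcr7, the reductase that finishes cholesterol, had 3.61 log2 CPM (12.2 CPM) and 1.07 log2 CPM per kb. Sc5d, which acts just before it, was 4.85-fold above Dhcr7 per kb. Tm7sf2, a sterol reductase whose reaction the lamin B receptor can also carry out, was the lowest of the step with 2.13 log2 CPM (4.37 CPM) and -0.01 log2 CPM per kb. Of the exonic sequence of Tm7sf2, 12.1% overlaps Vps51 on the same strand.

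Genes that move sterol, limit its uptake or sense its excess spanned 18.6-fold per kb. Nr1h2, which encodes LXR beta, had 6.10 log2 CPM (68.4 CPM) and 4.35 log2 CPM per kb, next below Mbtps1 among the 29 genes per kb of exons, whereas Sc5d stood above it per kb of coding sequence, at 5.79 against 5.68. Nr1h3, which encodes LXR alpha, had 3.58 log2 CPM (11.9 CPM) and 2.25 log2 CPM per kb. LXR beta was therefore 4.30-fold above LXR alpha per kb of exons and 5.72-fold above it per kb of coding sequence. Mylip, an LXR target that encodes the ubiquitin ligase IDOL, by which lipoprotein receptors are degraded, had 4.86 log2 CPM (28.99 CPM) and 3.16 log2 CPM per kb. Stard4, a soluble carrier that brings cholesterol to the endoplasmic reticulum, had 2.61 log2 CPM (6.12 CPM) and 0.13 log2 CPM per kb. Per kb of coding sequence Stard4 stood at 3.19, as 672 of its 5586 exonic bases are coding.

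**Figure D4:**
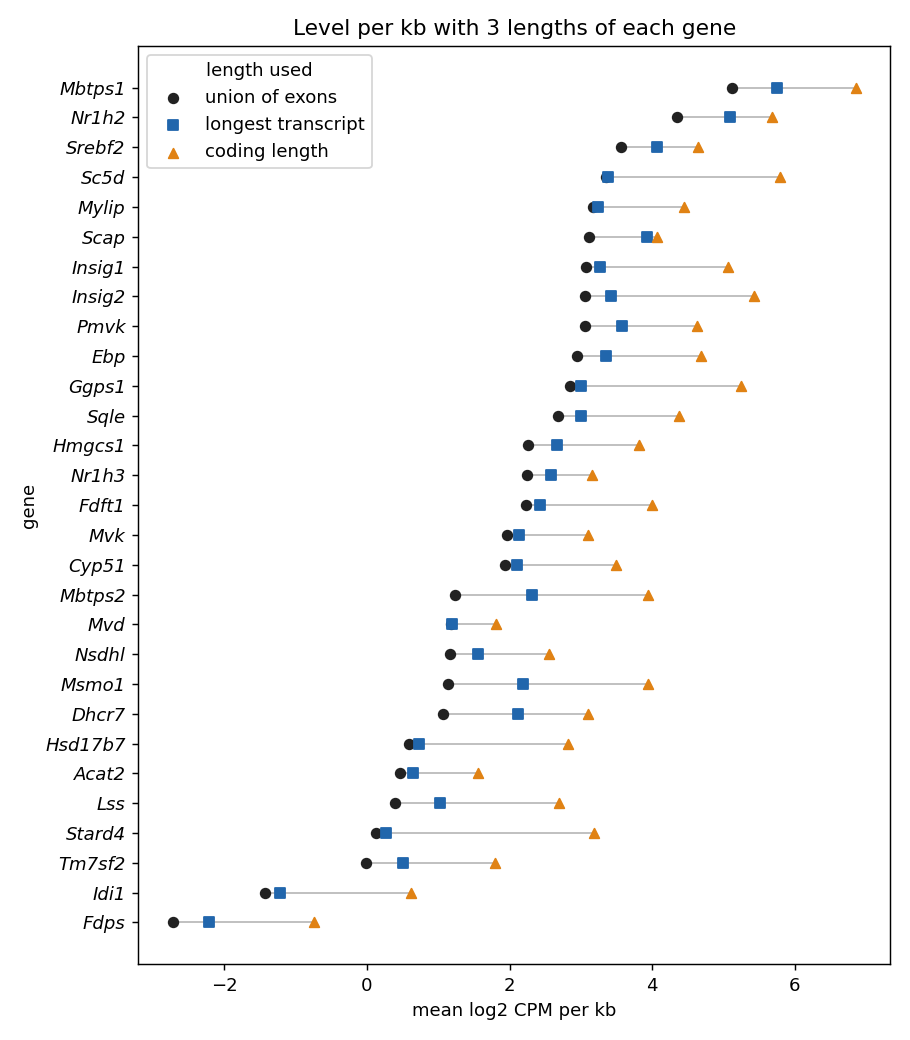
Mean log2 CPM per kb of the 29 genes when length is the union of exons (black circles), the longest transcript (blue squares) or the coding sequence (orange triangles), ordered by the union of exons. Mbtps1 is the highest and Idi1 and Fdps are the lowest with each length, whereas Stard4 shifts furthest, from 0.13 with exons to 3.19 with coding sequence.

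Several of the 29 genes have paralogs that do the same chemistry elsewhere or regulate a neighbouring pathway. Srebf1, which encodes the SREBP1 proteins that drive fatty acid synthesis, had 7.58 log2 CPM (191 CPM) and 5.08 log2 CPM per kb, and Srebf2 minus Srebf1 was -1.52 on the log2 scale per kb. Acat1, the mitochondrial thiolase used in ketone metabolism, had 6.06 log2 CPM (66.7 CPM) and Acat2 minus Acat1 was -3.68 on the log2 scale per kb. Of the relatives of Stard4, Stard5 had 0.76 log2 CPM per kb and Stard6 had -1.19 log2 CPM per kb. No row was matched for Acat3 or for Idi2, the paralog of Idi1.

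Lists of neighbouring genes gave a frame for these levels. Of 16 genes of fatty acid synthesis and desaturation 14 had a value, with a median of 3.63 log2 CPM per kb and a range from Acacb at 0.55 to Scd2, a stearoyl-CoA desaturase, at 6.37. Of 14 genes for sterol-regulated protein degradation and their partners in the endoplasmic reticulum all had a value, with a median of 3.52 and a range from Paqr3 at -0.94 to Pgrmc1, a haem- and sterol-binding membrane protein, at 6.45 log2 CPM per kb. Both medians lay above that of each of the steps of cholesterol synthesis. The 13 genes that use farnesyl or geranylgeranyl diphosphate for other ends had a median of 2.52 log2 CPM per kb, with Pdss1, of ubiquinone synthesis, lowest at -0.11 and Fnta, the shared subunit of farnesyl and geranylgeranyl transferase, highest at 4.29. Each of these users stood above Fdps, which makes the farnesyl form and stood at -2.72 log2 CPM per kb. The level of Fdps is uncertain because of its shared sequence, as described above, and so is this comparison.

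Genes for cholesterol efflux, esterification and transport inside the cell had a median of 2.18 log2 CPM per kb, with 16 of 17 measured. Their highest was Scarb2, a lysosomal membrane protein, at 5.63, and their lowest was Lcat, which esterifies cholesterol in plasma, at 0.74. Of 8 genes for oxysterol and bile acid synthesis 4 had a value, with a median of 0.99 log2 CPM per kb. Cyp39a1, an oxysterol hydroxylase, led them at 3.39, and Cyp46a1, the cholesterol hydroxylase best known from neurons, was lowest at 0.55 log2 CPM per kb. For Cyp7a1, the rate-limiting enzyme of bile acid synthesis in liver, no row was matched.

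**Figure D5:**
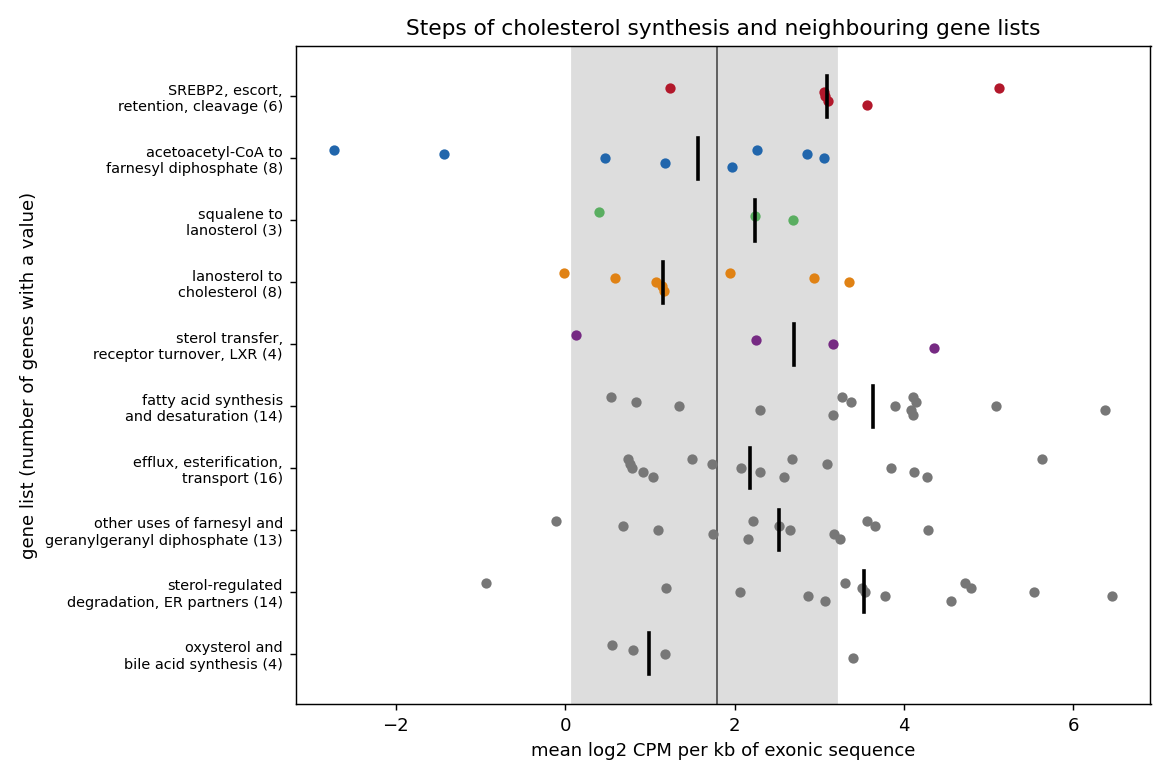
Mean log2 CPM per kb of exonic sequence for each gene (points) of the steps of cholesterol synthesis and its control (coloured) and of the neighbouring lists (grey), with the number of genes in parentheses and the median of each list as a black bar. The vertical line is the median of all genes and the grey band runs from their lower to their upper quartile. The medians run from 0.99 for oxysterol and bile acid synthesis to 3.63 for fatty acid synthesis, with the SREBP2 machinery at 3.09.

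The tissue label was checked against marker genes. Of 10 markers of corneal endothelium 9 lay above the median of all genes, from Col8a2, a collagen of Descemet membrane, at 12.79 and Aqp1, a water channel, at 12.37 log2 CPM to Cdh2, a cell adhesion protein, at 9.15, while Car2 stood at 0.74 log2 CPM. Slc4a11 stood at 10.71 log2 CPM, a mean over KO and WT libraries that checks no genotype. Markers of the stroma were also high, with all 6 measured above the median of all genes and between 4.19 for Ptgds and 12.07 log2 CPM for Col1a2. Of 8 markers of corneal epithelium 3 lay above the median, Aldh3a1 at 10.06, Krt5 at 5.12 and Krt15 at 4.75 log2 CPM, and the lowest was Cdh1 at -0.01. None of the 5 markers of iris and pigment cells (highest Dct, 3.26) nor of the 5 of lens (highest Bfsp1, 2.63) did so, and among leukocyte, vessel, and muscle and nerve markers Lyz2, Kdr, Myh11 and Acta2 did, at 4.30, 6.36, 7.69 and 5.64 log2 CPM. Markers of stroma and, in part, of epithelium were thus measured beside those of endothelium, and the part of other cells in the levels of the 29 genes was not tested.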

How the data were processed

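RNA from CEC with Descemet membrane was sequenced by the authors as stranded total RNA, in 12 libraries, with paired-end reads of 50 bases. The authors aligned reads to GRCm38/mm10 with Hisat2, normalized CPM by TMM and fitted limma with voom in a design of genotype by sex. Tool versions and the counter are not given in the sources used here. The deposited tables for genotype, sex and interaction each hold 15838 genes and, besides the mean, the authors' own log2 fold changes, t statistics, p-values, adjusted p-values and B statistics, which were not used. The mean expression, on the log2 scale, is the authors' mean over all libraries and was equal in the 3 tables. Without library totals the depth is unknown, so no interval or floor is given.

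Exonic, transcript and coding lengths came from GENCODE M21, and 15824 of the 15838 genes had a gene model. Promoters came from RefSeq (GRCm38.p6). Python 3.11.15 and pandas 2.3.3 were used, and length, level and motif steps were tested on simulated data. The genes named were all 29, the highest and lowest of each neighbouring list, paralogs, Slc4a11 and cell type markers. Genes that share sequence or exons were named after their values were seen, and so were the markers above the median. The 29 genes and the lists were chosen with earlier results of these data known. Another source of the mean, other lengths, other backgrounds and other motif letters were tried as alternatives. A paralog and a marker of the chosen lists are not reported here.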

Additional observations from a re-analysis of the deposited data

How the results depend on the processing

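No paired analysis was possible because the values used are 1 mean per gene over all libraries, and for that reason no library could be left out in turn. The mean was equal whichever table it was read from. Of the 29 genes, 18 lay above the median of all genes, 14 above that of genes with at least 1 CPM, 12 above that of protein-coding genes and 5 above that of genes with at least 10 CPM. The 2 backgrounds with a CPM minimum drop low genes by construction and so have a higher median. The median of protein-coding genes was also higher, 4.36 against 3.76 log2 CPM for all genes, so fewer of the 29 lay above it. Why that median was higher was not tested. Per kb the count was 17 with exons, 16 with the longest transcript and 15 with coding length. Coding length, from GENCODE because no protein table was given, was chosen after seeing the data, and the planned protein table was not run. The medians relative to that of all genes, in log2 units, were as follows with exons, longest transcript and coding length. The SREBP2 machinery had 1.30, 1.47 and 0.99, acetoacetyl-CoA to farnesyl diphosphate -0.22, -0.53 and -1.42, squalene to lanosterol 0.45, 0.23 and 0.13, and lanosterol to cholesterol -0.63, -0.09 and -0.57. Sterol transfer and LXR had 0.92, 0.71 and -0.05, the only list to change side of the median. Fatty acid synthesis had 1.84, 1.78 and 1.39, efflux and transport 0.40, 0.57 and 0.23, other uses of farnesyl diphosphate 0.74, 1.07 and 0.92, degradation and partners 1.73, 2.07 and 1.43, and oxysterol synthesis -0.80, -0.92 and -2.22. The shorter sterol letters raised the count of genes with a match from 1 to 3, and leaving out the bases after the start changed no count of genes for the long sterol element, CCAAT or GC boxes.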
